A study of Homo sapiens with 9 samples.

Results

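The 30 genes described here encode the enzymes that make cholesterol, the proteins that sense sterols, and proteins that move or store cholesterol inside cells. They were taken from a fixed list of gene symbols, and all 30 were among the 16366 genes of the table, which holds estimated counts, FPKM and TPM for each library. Poly(A) RNA had been sequenced from Cal-27, an established line of human squamous carcinoma cells of the tongue, labelled WT and grown in high glucose DMEM with fetal bovine serum. The first group received exosomes of cancer-associated fibroblasts (CAFs) during 48 h of co-culture, and the second, for the same time, exosomes labelled hOMF, an abbreviation that the labels do not spell out and also write as hMOF. The third was a control group without a named addition or a stated time, so a match in culture time is not known. Each group held 3 libraries, called replicate samples but not said to be separate cultures, so p-values reflect only how far these samples spread, and that spread may be technical. The exosome dose is not known here. Exosomes are vesicles shed by cells, and the comparisons ask how expression in the carcinoma cells differs after exposure to them.

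Cholesterol is built from acetyl-CoA in the cytosol and endoplasmic reticulum, first through the mevalonate pathway, which also feeds other isoprenoids, and then through squalene and a series of sterol intermediates. When sterols in the endoplasmic reticulum are low, the escort protein SCAP carries the membrane-bound transcription factor SREBP-2, encoded by SREBF2, to the Golgi, where a pair of proteases release its active part and genes of synthesis and uptake are transcribed. INSIG proteins hold SCAP back when sterols are plentiful. Cholesterol taken up with lipoproteins leaves lysosomes through the NPC proteins, and excess is esterified for storage.

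Promoters were read for letters that the members share, and 5 of them are printed. Windows of 300 bases, from 250 before to 50 after a RefSeq transcript start (build GRCh38.p14), were on hand for 27 of the 30 genes in 36 windows, since some genes have more than 1 start. ACAT2, FDFT1 and SQLE had no entry. SREBF2 is shown because its window held the sterol regulatory element letters. INSIG1, MSMO1 and EBP are shown as members that were higher with both kinds of exosomes, and NSDHL as the only member that fell. Capitals mark TCACNCNAC, a loose form of the sterol regulatory element, and CCAAT, the letters bound by NF-Y, each on either strand (CCAAT on the opposite strand reads ATTGG).
SREBF2: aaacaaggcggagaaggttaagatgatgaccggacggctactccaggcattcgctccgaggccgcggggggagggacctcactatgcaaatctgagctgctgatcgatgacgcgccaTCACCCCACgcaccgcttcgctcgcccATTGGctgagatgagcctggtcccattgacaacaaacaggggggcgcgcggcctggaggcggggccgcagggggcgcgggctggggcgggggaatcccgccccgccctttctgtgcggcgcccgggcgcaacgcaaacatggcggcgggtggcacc
INSIG1: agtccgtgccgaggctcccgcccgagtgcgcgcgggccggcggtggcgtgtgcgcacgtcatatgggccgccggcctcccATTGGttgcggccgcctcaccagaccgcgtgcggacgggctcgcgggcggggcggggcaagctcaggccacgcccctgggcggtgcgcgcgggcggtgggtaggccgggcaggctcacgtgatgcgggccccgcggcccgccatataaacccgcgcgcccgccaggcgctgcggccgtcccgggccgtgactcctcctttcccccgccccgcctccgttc
MSMO1: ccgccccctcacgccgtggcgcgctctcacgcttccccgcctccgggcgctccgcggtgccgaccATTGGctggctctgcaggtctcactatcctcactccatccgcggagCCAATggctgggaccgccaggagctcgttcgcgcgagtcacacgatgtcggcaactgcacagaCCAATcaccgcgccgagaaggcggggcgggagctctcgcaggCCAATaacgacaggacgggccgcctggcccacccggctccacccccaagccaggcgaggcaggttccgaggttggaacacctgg
EBP: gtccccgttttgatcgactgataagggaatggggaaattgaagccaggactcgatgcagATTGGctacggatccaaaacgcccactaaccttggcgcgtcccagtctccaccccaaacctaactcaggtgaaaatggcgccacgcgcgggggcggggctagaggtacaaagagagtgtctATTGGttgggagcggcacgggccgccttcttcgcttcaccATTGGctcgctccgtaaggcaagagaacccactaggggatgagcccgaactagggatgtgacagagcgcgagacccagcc
NSDHL: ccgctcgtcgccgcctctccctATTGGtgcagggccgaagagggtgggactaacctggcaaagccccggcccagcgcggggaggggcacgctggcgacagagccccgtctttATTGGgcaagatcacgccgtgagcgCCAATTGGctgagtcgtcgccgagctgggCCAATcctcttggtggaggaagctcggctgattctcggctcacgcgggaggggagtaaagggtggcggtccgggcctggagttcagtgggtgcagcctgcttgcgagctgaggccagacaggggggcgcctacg
The windows are chr22:41832855-41833154, chr7:155297628-155297927, chr4:165327419-165327718, chrX:48521558-48521857 and chrX:152830813-152831112 in that order, all on the plus strand and printed 5′ to 3′.

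CCAAT was in 21 of the 36 windows of members (58.3%), against 12155 of all 35116 promoter windows (34.6%). By gene, 19 of the 27 members with a window had it, a count without a share by gene over all genes beside it. The 35116 windows were not limited to tested genes. MSMO1 held 4 matches, at -185, -139, -76 and -34 from the transcript start, EBP held 3 and NSDHL 5, of which the pair at -113 and -110 overlap. NSDHL, which fell with hOMF exosomes, thus had more matches than any of the other 4 promoters shown. The strict element TCACNCCAC was in 1 member window, that of SREBF2 at -133, and in 1.13% of all windows. The looser TCACNCNAC, which includes every strict match, was in 3 member windows (SREBF2, FDPS and HSD17B7), or 8.33%, against 2.55% of all. None of these 3 genes passed the expression test below. The E-box CACGTG was in 5 member windows (13.9%, against 7.26% of all), among them those of INSIG1 and LSS, and the GC box GGGCGG in 30 (83.3%, against 45.0% of all). Both strands were read for each of the 5 motifs, no test was made, and a match is a match of letters only.

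The libraries held 11185672 to 12779101 estimated counts, and 12470 genes, all 30 members included, had enough counts to be tested. Squamous identity was present: all 10 epithelial and squamous markers, KRT5 and TP63 among them, were above 1 FPKM in every library. Of 11 fibroblast markers in the table, 2 were above 1 FPKM in every library (COL1A1 and FBLN1), and COL3A1, DCN, FAP, POSTN and THY1 stood at 0.05 FPKM or less in every library. COL1A1 was at 8.1 to 8.67 FPKM with CAF exosomes and 7.7 to 9.59 FPKM with hOMF exosomes, against 6.22 to 7.27 FPKM in control. LUM was at 1.19 to 1.32 FPKM with CAF exosomes and 1.02 to 1.42 FPKM with hOMF exosomes, against 0.53 to 0.7 FPKM in control. Summed fibroblast markers were at 94.3 to 99.5 FPKM with CAF exosomes and 89.1 to 96.6 FPKM with hOMF exosomes, against 80.8 to 97.6 FPKM in control. FBLN1 was the largest part of each sum. Of 5 fibroblast markers tested, 1 was called higher and 0 lower with each kind of exosome. That is 20%, against 18.2% of all tested genes called with CAF exosomes and 23.2% called with hOMF exosomes. The part of fibroblast RNA in the results was not tested. Control replicate 3 stood apart. It lay farthest out on the first principal component, at 29.8, with the exosome libraries at -16.6 to -8.38 and the other control libraries at 18.8 and 21.3. Other libraries spread as well. On the second component control replicates 1 and 3 were the opposite ends, at 16.5 and -17.9. CAF exosome replicates 1 and 2 were at 9.70 and -10.7 there. In control replicate 3 the leukocyte genes PTPRC and LYZ were at 1.67 and 2.32 FPKM, against no more than 0.02 and 0.46 FPKM in the other 8. Of 4 leukocyte markers in the table, CD68 and CD14 were above 1 FPKM in every library, and the sum ran from 27.96 to 31.8 FPKM with CAF exosomes and 27.6 to 30.6 FPKM with hOMF exosomes, against 25.9 to 31.8 FPKM in control; their part in the results was not tested. Calls on members against control, and the sums over enzymes, are therefore given with and without control replicate 3. Values, counts and medians of the further lists are given with it only. Summed squamous markers also moved with the groups, with 5002 to 5404 FPKM with CAF exosomes and 4311 to 5206 FPKM with hOMF exosomes, against 3702 to 4434 FPKM in control, and their part was not tested either. In bulk RNA, fewer cells of a kind and less RNA per cell cannot be told apart.

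Before any comparison the pathway was already strongly expressed in control cells. Per transcript length, FDPS, which makes farnesyl diphosphate, was the highest member, at 714 ± 42.7 FPKM in control (SD, n = 3). DHCR7, a reductase of the last step to cholesterol, followed at 614 ± 55.6 FPKM, then NPC2, which carries cholesterol inside the lysosome, at 577 ± 56.7 FPKM, and FDFT1, the squalene synthase, at 559 ± 39.8 FPKM. The control libraries of FDPS lay above those of all other members, while DHCR7, NPC2 and FDFT1 overlapped. EBP, a sterol isomerase, was next at 346 ± 31.1 FPKM, below all 4.

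The middle of the order was crowded. MVD, MSMO1, LSS, SREBF2, IDI1, INSIG1, SQLE, CYP51A1 and ACAT2 had control means between 157 and 224 FPKM, and neighbours in this stretch were not apart beyond their spread. The sensing proteins other than SREBF2 and INSIG1 were lower per length. SCAP was at 14.05 ± 0.731 FPKM, INSIG2 at 19.9 ± 2.26 FPKM and MBTPS2, the site-2 protease, at 5.46 ± 0.384 FPKM, the lowest member. INSIG1 was thus far above its homologue INSIG2 in every library. The reductase step after CYP51A1 also has a pair of genes, and TM7SF2 stood at 49.6 ± 5.98 FPKM and LBR, which is also a nuclear lamina receptor, at 19.7 ± 0.954 FPKM.

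**Figure D1:**
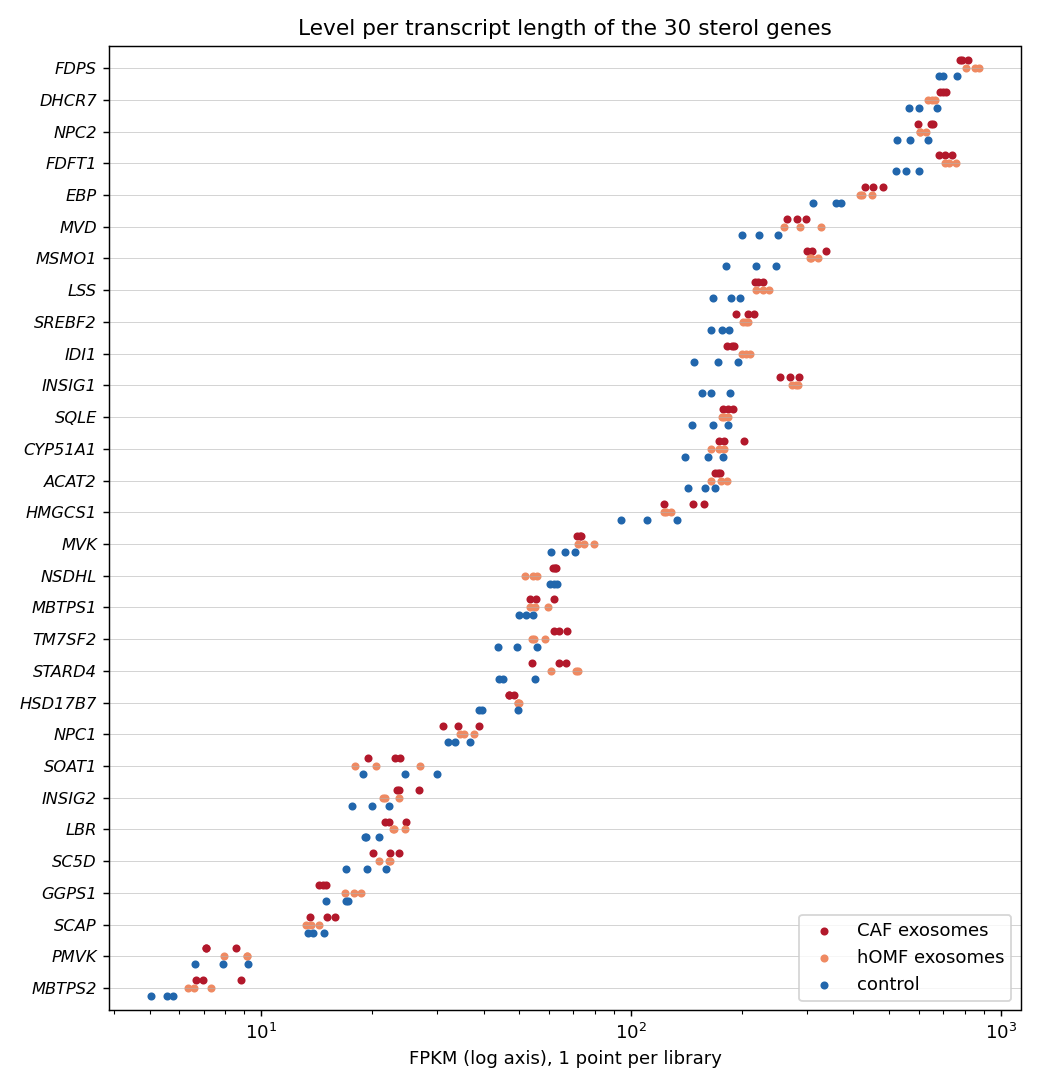
FPKM of each member (log axis) in the 9 libraries, 1 point per library, with CAF exosome, hOMF exosome and control libraries in separate colours and genes ordered by their control mean. FDPS is at the top and MBTPS2 at the bottom, and for INSIG1 and MSMO1 all exosome libraries lie to the right of all control libraries.

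With CAF exosomes, 9 of the 30 members were higher than in control and 0 were lower, where 9.51% of all tested genes were higher and 8.64% lower (18.2% called in either direction). The 9 were MVD of the mevalonate pathway, the sterol enzymes FDFT1, LSS, TM7SF2, MSMO1 and EBP, the sensing genes INSIG1 and MBTPS2, and the transfer protein gene STARD4. The median log2 change over the members was 0.16, against -0.01 over all tested genes. A positive value was found for 26 of 30 members and for 6141 of all 12470 tested genes. With hOMF exosomes, 7 members were higher and 1, NSDHL, was lower, where 11.8% of all genes were higher and 11.4% lower (23.2% in either direction). The median was 0.11 over the members and 0.00 over all genes. Values were positive for 28 of 30 members and for 6299 of all 12470 tested genes. These calls come from edgeR's quasi-likelihood test at a Benjamini-Hochberg adjusted p under 0.05, and both comparisons share the control libraries.

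Changes were small. The steepest member, INSIG1, was 1.57 times its control level with CAF exosomes and 1.59 times with hOMF exosomes. With control replicate 3 left out, 5 members were higher with CAF exosomes (FDFT1, MSMO1, EBP, INSIG1 and MBTPS2) and 4 with hOMF exosomes (FDFT1, MSMO1, INSIG1 and STARD4), and NSDHL was still lower with hOMF exosomes. Without control replicate 1 the count with CAF exosomes was 14, and without hOMF exosome replicate 2 the count with hOMF exosomes was 4. Calls over all genes moved too. With CAF exosomes they were 2264 with all 9 libraries, 1442 without control replicate 3 and 2015 without control replicate 1. With hOMF exosomes they were 2896 with all 9 libraries, 2014 without control replicate 3 and 1695 without hOMF exosome replicate 2. The median over the members was 0.09 with CAF exosomes and 0.06 with hOMF exosomes when control replicate 3 was left out, and 0.25 with CAF exosomes and 0.19 with hOMF exosomes when control replicate 1 was.

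**Figure D2:**
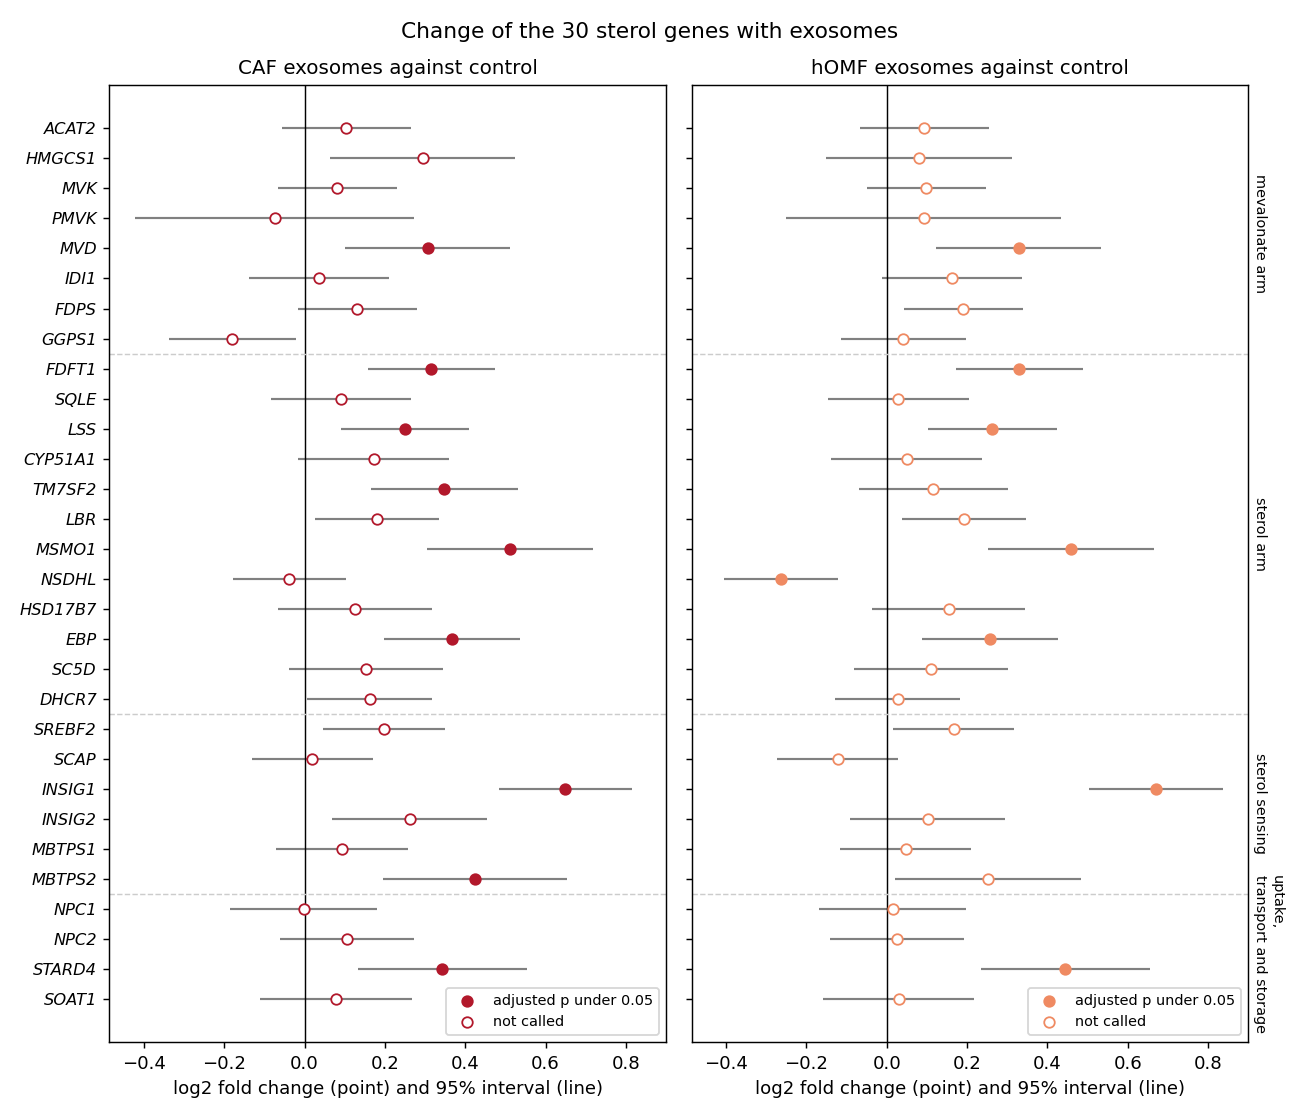
Log2 fold change of each member with its 95% interval, for CAF exosomes against control (left) and hOMF exosomes against control (right), with genes grouped by role and filled points called at an adjusted p under 0.05. INSIG1 lies farthest to the right in both, and NSDHL is a filled point to the left of 0 with hOMF exosomes only.

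The control libraries differed among themselves across the members, which bears on every comparison with them. Control replicate 3 was the lowest control library for 22 of 30 members and control replicate 1 the highest for 26. Relative to the mean of all 9 libraries, the median log2 level of the members ran from 0.02 to 0.13 in the CAF exosome libraries and from 0.02 to 0.06 in the hOMF exosome libraries. The same median was 0.02 in control replicate 1, -0.13 in control replicate 2 and -0.23 in control replicate 3. Control replicate 1 thus lay within the range of the exosome libraries on this measure, while the other 2 control libraries lay below it. Of the CAF exosome libraries, replicate 2 was the lowest for 19 members and replicate 1 the highest for 19.

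**Figure D3:**
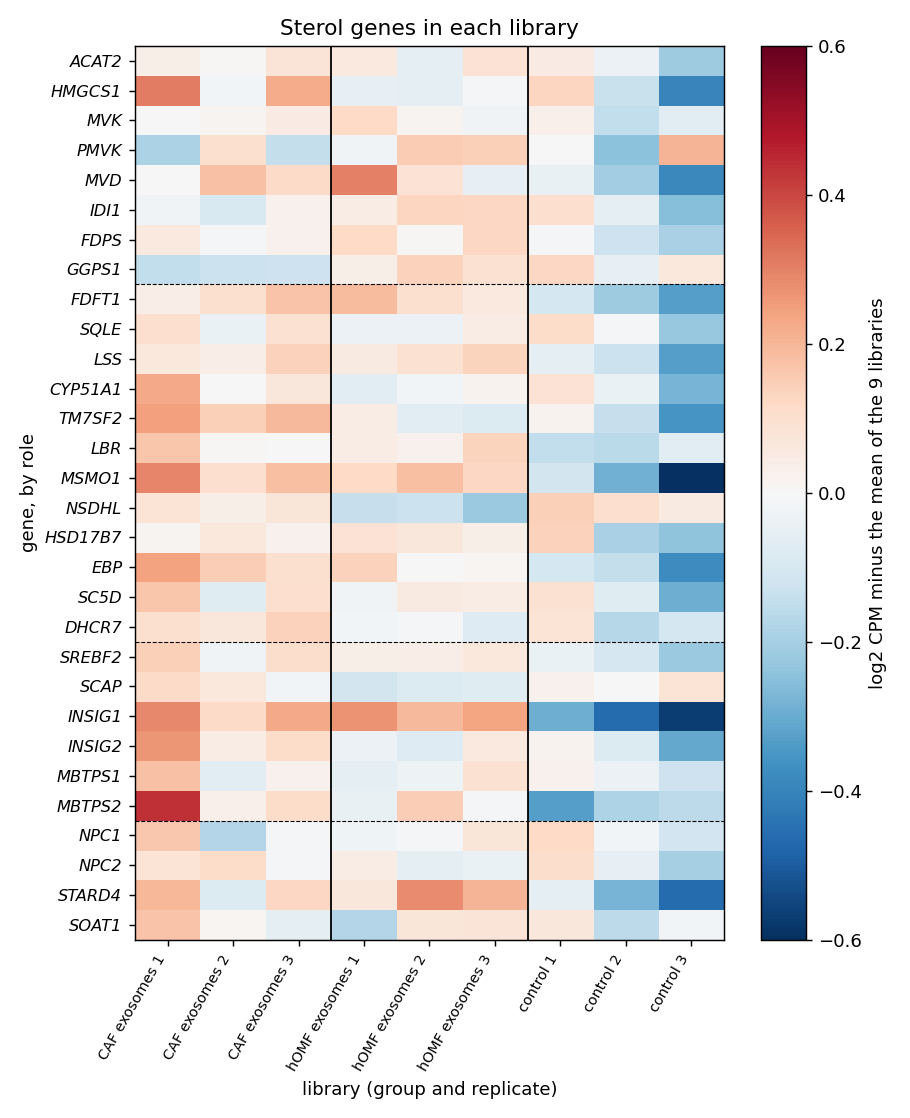
Log2 CPM of each member minus its mean over the 9 libraries, with genes in rows by role and libraries in columns by group. Control replicate 3 is the lowest control library in 22 of 30 rows, with a median of -0.23, and INSIG1 is blue in all 3 control libraries.

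In the mevalonate arm 1 of 8 genes (12.5%) was called with either kind of exosome, a lower share than the 18.2% of all tested genes called with CAF exosomes and the 23.2% called with hOMF exosomes. MVD decarboxylates mevalonate diphosphate to the first isoprene unit. It had 408, 459 and 440.0 CPM with CAF exosomes and 502, 432 and 393 CPM with hOMF exosomes, against 394, 352 and 311 CPM in control. Its log2 fold change was 0.31 (SE 0.10, adjusted p = 0.0385) with CAF exosomes and 0.33 (SE 0.10, adjusted p = 0.0231) with hOMF exosomes. With CAF exosomes all libraries were above control, while 1 hOMF exosome library was within the control range. When control replicate 3 was omitted, the values were 0.22 (adjusted p = 0.153) with CAF exosomes and 0.25 (adjusted p = 0.0988) with hOMF exosomes, so neither call held. The call with CAF exosomes was also lost when any 1 of CAF exosome replicates 2 and 3, hOMF exosome replicate 2 and control replicate 2 was left out, and with a correction for GC content and length. That with hOMF exosomes was lost without hOMF exosome replicate 1 or 2 or control replicate 2.

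The other 7 genes of this arm did not pass the test. ACAT2, which joins acetyl-CoA units at the first step, had 215, 210.3 and 221 CPM with CAF exosomes and 218, 201 and 222 CPM with hOMF exosomes, against 217, 204 and 180.5 CPM in control. Its log2 changes were 0.10 with CAF exosomes and 0.09 with hOMF exosomes, and the groups overlapped. ACAT2 shares exon bases with SOD2 and TCP1 on the opposite strand, and no source used here says whether counting used strand. HMGCS1, the cytosolic HMG-CoA synthase, had 702, 560.2 and 661 CPM with CAF exosomes and 549, 546 and 564 CPM with hOMF exosomes, against 621, 517 and 431 CPM in control. It stood at 0.29 (SE 0.11, adjusted p = 0.0714) with CAF exosomes and 0.08 (SE 0.11, adjusted p = 0.633) with hOMF exosomes. The first of these was called under 5 of 18 alternatives, DESeq2 among them (adjusted p = 0.042). GGPS1, which makes geranylgeranyl diphosphate for protein prenylation, had the lowest value of all members with CAF exosomes, -0.18 (SE 0.07, adjusted p = 0.103). It was called lower after the correction for GC content and length (-0.21, adjusted p = 0.0256). Its estimated counts were not whole in any library and 37.3% of its exon bases lie in TBCE on the same strand, so that its values are uncertain. The kinases MVK and PMVK, the isomerase gene IDI1 and FDPS lay between -0.07 and 0.19 in both comparisons. PMVK was counted at only 5.17, 6.30 and 5.34 CPM with CAF exosomes, 5.81, 6.56 and 6.50 CPM with hOMF exosomes and 5.91, 4.97 and 6.78 CPM in control, and it had the widest intervals.

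From squalene synthesis to cholesterol, 5 of 12 genes rose with CAF exosomes, and 4 rose and 1 fell with hOMF exosomes. Over all tested genes 9.51% rose with CAF exosomes, and 11.8% rose and 11.4% fell with hOMF exosomes. FDFT1, the squalene synthase that commits the pathway to sterols, had 1199, 1248 and 1314 CPM with CAF exosomes and 1333, 1251 and 1218 CPM with hOMF exosomes, against 1088, 1006 and 929 CPM in control. All 6 exosome libraries were above all control libraries. FDFT1 changed on the log2 scale by 0.32 (SE 0.07, adjusted p = 0.00903) with CAF exosomes and 0.33 (SE 0.07, adjusted p = 0.00523) with hOMF exosomes. Without control replicate 3 the values were 0.26 (adjusted p = 0.0409) with CAF exosomes and 0.28 (adjusted p = 0.0250) with hOMF exosomes, and both calls held under all 18 alternatives. Its estimated counts were whole in only 2 of 9 libraries, which makes its values less certain.

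SQLE, the squalene monooxygenase that follows, did not pass the test, at 0.09 with CAF exosomes and 0.03 with hOMF exosomes. LSS then closes the ring to lanosterol. It had 927, 911 and 977 CPM with CAF exosomes and 921, 947 and 975 CPM with hOMF exosomes, against 852, 810.5 and 706 CPM in control, again with no overlap. The log2 change of LSS was 0.25 (SE 0.08, adjusted p = 0.0315) with CAF exosomes and 0.26 (SE 0.08, adjusted p = 0.0198) with hOMF exosomes. With control replicate 3 left out, these values were 0.17 (adjusted p = 0.133) with CAF exosomes and 0.19 (adjusted p = 0.0894) with hOMF exosomes. The call with CAF exosomes was lost too when any 1 of CAF exosome replicates 1 and 3, hOMF exosome replicate 2 and control replicate 2 was left out, and that with hOMF exosomes without hOMF exosome replicate 2.

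CYP51A1, the lanosterol demethylase, was not called, at 0.17 with CAF exosomes and 0.05 with hOMF exosomes. In GENCODE 79.4% of its exon bases also lie in AC000120.2 on the same strand. AC000120.2 is not among the 16366 genes, and the estimated counts of CYP51A1 were whole in all 9 libraries. No split of its reads thus shows in the counts, although the annotation behind them is not known. Of the genes of the next reductase step, TM7SF2 was called and LBR was not. TM7SF2 had 98.3, 91.2 and 94.8 CPM with CAF exosomes and 85.3, 78.9 and 78.1 CPM with hOMF exosomes, against 83.9, 75.1 and 64.7 CPM in control. It rose with CAF exosomes, at 0.35 (SE 0.09, adjusted p = 0.0122), and did not pass the test with hOMF exosomes, at 0.12 (SE 0.09, adjusted p = 0.354). All CAF exosome libraries were above all others. The rise was 0.25 (adjusted p = 0.0588) without control replicate 3, and its adjusted p was also above 0.05 after the correction for GC content and length. LBR was at 0.18 (SE 0.07, adjusted p = 0.0963) with CAF exosomes and 0.19 (SE 0.07, adjusted p = 0.0680) with hOMF exosomes, without a call in either, although its exosome libraries all lay above control.

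MSMO1, a sterol oxidase that removes methyl groups, had the largest change of any synthesis enzyme. It counted 654, 573 and 605 CPM with CAF exosomes and 580.4, 605 and 582 CPM with hOMF exosomes, against 495, 438 and 353 CPM in control. The lowest exosome library was above the highest control library. The log2 change was 0.51 (SE 0.10, adjusted p = 0.00253) with CAF exosomes and 0.46 (SE 0.10, adjusted p = 0.00361) with hOMF exosomes, or 1.42 times control with CAF exosomes and 1.37 times with hOMF exosomes. When control replicate 3 was omitted, in which MSMO1 was lowest, the values were 0.39 (adjusted p = 0.00723) with CAF exosomes and 0.34 (adjusted p = 0.0111) with hOMF exosomes, and both calls held under all 18 alternatives.

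NSDHL, a dehydrogenase that acts after MSMO1 in the same demethylation, was the only member that fell. It had 81.4, 78.9 and 81.0 CPM with CAF exosomes and 70.1, 70.5 and 66.0 CPM with hOMF exosomes, against 85.2, 82.7 and 80.1 CPM in control. The hOMF exosome libraries lay below all others, while CAF exosome and control libraries overlapped. The log2 change was -0.04 (SE 0.07, adjusted p = 0.726) with CAF exosomes and -0.26 (SE 0.07, adjusted p = 0.0104) with hOMF exosomes, and the second was called under all 18 alternatives, with -0.29 (adjusted p = 0.0180) when control replicate 3 was left out. HSD17B7, the ketoreductase that completes this demethylation, was not called, at 0.13 with CAF exosomes and 0.15 with hOMF exosomes.

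EBP had 409.7, 384 and 370.4 CPM with CAF exosomes and 381, 347 and 350.2 CPM with hOMF exosomes, against 322, 314 and 267 CPM in control. All exosome libraries were above control. Its log2 fold change was 0.37 (SE 0.08, adjusted p = 0.00576) with CAF exosomes and 0.26 (SE 0.08, adjusted p = 0.0299) with hOMF exosomes. Without control replicate 3 the value with CAF exosomes was 0.29 (adjusted p = 0.0270), while that with hOMF exosomes was 0.18 (adjusted p = 0.131), a call also lost without hOMF exosome replicate 1 or 2 or control replicate 2. The last enzymes did not pass the test. SC5D, a sterol desaturase, was at 0.15 with CAF exosomes and 0.11 with hOMF exosomes. DHCR7 had 1646, 1612 and 1698 CPM with CAF exosomes and 1524, 1526 and 1462 CPM with hOMF exosomes, against 1629, 1368 and 1432 CPM in control, with log2 changes of 0.16 with CAF exosomes and 0.03 with hOMF exosomes. Neither exosome group of DHCR7 was clear of control replicate 1.

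**Figure D4:**
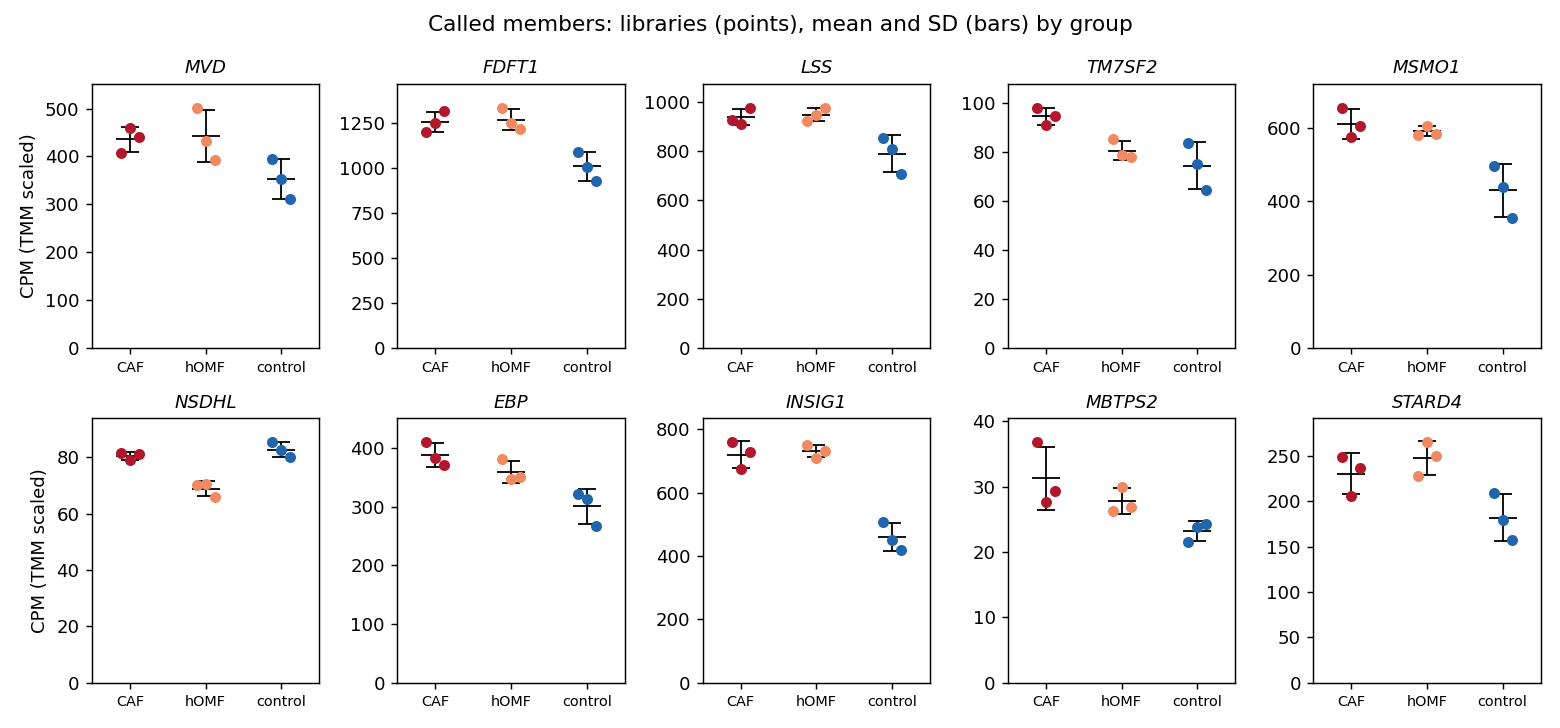
CPM of the 10 members called in at least 1 comparison with control, with 1 point per library, the mean as a line and the SD as bars, for CAF exosomes, hOMF exosomes and control from left to right, on axes that start at 0. The control points of INSIG1 all lie below the exosome points, and the hOMF exosome points of NSDHL lie below both other groups.

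Summed over the 20 enzymes, transcripts of synthesis made up 6965 ± 291 TPM with CAF exosomes and 6931 ± 132 TPM with hOMF exosomes, against 5709 ± 529 TPM in control (SD, n = 3). The lowest exosome sum, 6683 TPM, was above the highest control sum, 6288 TPM. The ratio of the means was 1.22 with CAF exosomes and 1.21 with hOMF exosomes. Without control replicate 3 it was 1.17 with either. TPM carry no TMM factor, and with TMM-scaled CPM, added after seeing the data, the ratio was 1.17 with CAF exosomes and 1.13 with hOMF exosomes. The lowest exosome sum, 8585 CPM, was then close to the highest control sum, 8437 CPM. With both changes the ratio was 1.11 with CAF exosomes and 1.08 with hOMF exosomes. By arm, the mevalonate enzymes gave 2498 ± 96.5 TPM with CAF exosomes and 2598 ± 76.6 TPM with hOMF exosomes, against 2147 ± 199 TPM in control. The enzymes from squalene on gave 4467 ± 194 TPM with CAF exosomes and 4333 ± 77.1 TPM with hOMF exosomes, against 3562 ± 330 TPM in control. With TMM-scaled CPM and without control replicate 3, the ratio for the mevalonate enzymes was 1.07 with either kind of exosome. For the enzymes from squalene on it was then 1.13 with CAF exosomes and 1.09 with hOMF exosomes. All of these sums weigh abundant genes most and carry no test.

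Among the 6 genes of sterol sensing, INSIG1 stood out. It encodes the endoplasmic reticulum protein that retains SCAP and so holds back SREBP processing, and it is itself a known target of SREBP. INSIG1 had 759, 675 and 728 CPM with CAF exosomes and 750.0, 711 and 732 CPM with hOMF exosomes, against 507, 452 and 419 CPM in control. The lowest exosome library stood well above the highest control library. INSIG1 changed on the log2 scale by 0.65 (SE 0.08, adjusted p = 9.33e-05) with CAF exosomes and 0.67 (SE 0.08, adjusted p = 3.9e-05) with hOMF exosomes. With control replicate 3 left out, the values were 0.59 (adjusted p = 0.000425) with CAF exosomes and 0.61 (adjusted p = 0.000167) with hOMF exosomes, and the calls held under all 18 alternatives. INSIG2, its homologue, had 62.8, 54.0 and 56.5 CPM with CAF exosomes and 51.0, 49.5 and 54.5 CPM with hOMF exosomes, against 53.0, 49.4 and 42.3 CPM in control. It stood at 0.26 (SE 0.09, adjusted p = 0.0559) with CAF exosomes and 0.10 (SE 0.09, adjusted p = 0.446) with hOMF exosomes, and the first of these was called under 6 of 18 alternatives.

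SREBF2 itself was not called. It had 1059, 945 and 1033 CPM with CAF exosomes and 985, 987 and 1002 CPM with hOMF exosomes, against 934, 894 and 821 CPM in control. All exosome libraries were above control, by small steps. The log2 change was 0.20 (SE 0.07, adjusted p = 0.0650) with CAF exosomes and 0.17 (SE 0.07, adjusted p = 0.101) with hOMF exosomes, called under 6 of 18 alternatives in the first comparison and 3 in the second. SCAP had 54.5, 52.5 and 49.8 CPM with CAF exosomes and 46.7, 47.6 and 47.9 CPM with hOMF exosomes, against 51.2, 50.2 and 53.3 CPM in control, with log2 changes of 0.02 with CAF exosomes and -0.12 with hOMF exosomes. Its hOMF exosome libraries lay below control, without a call.

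Of the 2 proteases that release SREBP, 1 was called, and only with CAF exosomes. Among the 6 sensing genes 33.3% were called with CAF exosomes, against 18.2% of all tested genes. With hOMF exosomes the share was 16.7%, against 23.2% of all tested genes. MBTPS1, the site-1 protease of the Golgi, was at 0.09 with CAF exosomes and 0.05 with hOMF exosomes, and had 254, 215 and 229 CPM with CAF exosomes and 216, 220.2 and 239 CPM with hOMF exosomes, against 229, 219 and 206 CPM in control. MBTPS2, the site-2 protease, had 36.7, 27.7 and 29.3 CPM with CAF exosomes and 26.3, 30.0 and 26.9 CPM with hOMF exosomes, against 21.5, 23.8 and 24.3 CPM in control. CAF exosome replicate 1 was well above the rest. MBTPS2 was called with CAF exosomes, at 0.42 (SE 0.11, adjusted p = 0.0138), but not without CAF exosome replicate 1 (adjusted p = 0.0671). With control replicate 3 left out, the value was 0.46 (adjusted p = 0.0262). With hOMF exosomes it was at 0.25 (SE 0.11, adjusted p = 0.104). Exons of YY2 make up 12.2% of the exon bases of MBTPS2 on the same strand, and YY2 itself was at -0.01 with CAF exosomes.

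Of the 4 genes of cholesterol movement and storage, 1 (25%) rose with each kind of exosome. Over all tested genes 18.2% were called with CAF exosomes and 23.2% with hOMF exosomes. The gene that rose is thus a single gene and no result about this role. STARD4 encodes a cytosolic carrier that moves sterol between membranes and is a known SREBP target. It had 249, 205 and 237 CPM with CAF exosomes and 227, 265 and 249.8 CPM with hOMF exosomes, against 209, 179 and 158 CPM in control. The hOMF exosome libraries were above control, and 1 CAF exosome library was within the control range. The log2 change was 0.34 (SE 0.10, adjusted p = 0.0260) with CAF exosomes and 0.45 (SE 0.10, adjusted p = 0.00494) with hOMF exosomes. When control replicate 3 was omitted, the values were 0.25 (adjusted p = 0.110) with CAF exosomes and 0.35 (adjusted p = 0.0237) with hOMF exosomes. The call with CAF exosomes was also lost when any 1 of CAF exosome replicates 1 and 3 and control replicate 2 was left out.

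NPC1 and NPC2, which pass cholesterol out of the lysosome, overlapped in all groups. NPC1 had 176, 139.6 and 156 CPM with CAF exosomes and 155, 156 and 166 CPM with hOMF exosomes, against 171, 156 and 145 CPM in control, with log2 changes of 0.00 with CAF exosomes and 0.01 with hOMF exosomes. NPC2 had 362, 369.7 and 341 CPM with CAF exosomes and 353, 329.6 and 333 CPM with hOMF exosomes, against 368, 331 and 298 CPM in control, at 0.11 with CAF exosomes and 0.03 with hOMF exosomes. The same was true of SOAT1, which esterifies cholesterol for storage. SOAT1 had 86.8, 77.7 and 74.2 CPM with CAF exosomes and 68.2, 81.1 and 81.4 CPM with hOMF exosomes, against 80.6, 69.1 and 76.2 CPM in control, at 0.08 with CAF exosomes and 0.03 with hOMF exosomes. The 95% intervals for these 3 genes lay within -0.19 to 0.27.

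CAF exosomes were also set against hOMF exosomes, which asks whether the source of the exosomes mattered. By edgeR 0 of the 30 members were higher and 0 lower, where 0.00802% of all tested genes were higher and 0.00802% lower (0.016% in either direction). At an unadjusted p under 0.05 there were 3 members and 947 of 12470 genes, and DESeq2 and limma on log2(FPKM + 1) also called 0 members. The log2 differences ran from -0.22 for GGPS1 to 0.23 for TM7SF2. For 29 of 30 members the 95% interval lay between -0.5 and 0.5, PMVK being the exception. NSDHL, called with hOMF exosomes alone, was 0.23 higher with CAF exosomes than with hOMF exosomes (interval 0.08 to 0.37, adjusted p = 0.369). TM7SF2, called with CAF exosomes alone, gave 0.23 (interval 0.05 to 0.41, adjusted p = 0.537), and MBTPS2 gave 0.17 (interval -0.05 to 0.40, adjusted p = 0.761). Calls that fell in 1 of the 2 exosome groups were thus not shown to differ between them. INSIG1 differed by -0.02 (interval -0.19 to 0.14) and MSMO1 by 0.05 (interval -0.15 to 0.26).

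Other sterol genes were read from further lists. Of 33 further genes of cholesterol synthesis, lipoprotein uptake, sterol transfer and ester turnover in the table, 29 were tested, and 5 rose and 2 fell with CAF exosomes while 7 rose and 3 fell with hOMF exosomes. These are 24.1% called with CAF exosomes and 34.5% with hOMF exosomes, where the shares over all tested genes were 18.2% and, with hOMF exosomes, 23.2%. GRAMD1C, a sterol transfer protein anchored in the endoplasmic reticulum, rose by 0.87 (SE 0.14, adjusted p = 0.000771) with CAF exosomes and 1.17 (SE 0.14, adjusted p = 4.2e-05) with hOMF exosomes. TMEM41B, an endoplasmic reticulum lipid scramblase, rose by 0.53 with CAF exosomes and 0.49 with hOMF exosomes. CAV1, the caveolin that binds cholesterol in the plasma membrane, was lower, at -0.26 with CAF exosomes and -0.33 with hOMF exosomes. The medians of this list were 0.11 with CAF exosomes and 0.12 with hOMF exosomes.

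Of 23 genes that traffic SREBP or degrade sterol-regulated proteins, 1 rose and 4 fell with each kind of exosome, with medians of -0.03 with CAF exosomes and -0.10 with hOMF exosomes. The 21.7% called in each is close to the 18.2% of all tested genes called with CAF exosomes and the 23.2% called with hOMF exosomes, so the genes named next are single genes and no result about the list. The gene that rose was MARCHF6, whose ubiquitin ligase degrades squalene monooxygenase, by 0.27 (SE 0.07, adjusted p = 0.0128) with CAF exosomes and 0.20 (SE 0.07, adjusted p = 0.0447) with hOMF exosomes, the second named after its values were seen. PAQR3, a Golgi protein that binds SCAP and SREBP, fell, with values of -0.33 with CAF exosomes and -0.52 with hOMF exosomes. VCP, the ATPase that pulls ubiquitinated proteins from the membrane, fell too, with -0.25 with CAF exosomes and -0.25 with hOMF exosomes. TRIB1, a pseudokinase that scaffolds ubiquitination, gave -0.67 with CAF exosomes and -0.70 with hOMF exosomes.

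Lipid genes beside the pathway gave larger medians. Of 8 fatty acid enzymes under SREBP control, 7 rose and 1 fell with each kind of exosome, with a median of 0.48 in both. Of 7 genes of the liver X receptor (a sterol-activated nuclear receptor) and SREBF1, 5 rose and 0 fell with each, with medians of 0.92 with CAF exosomes and 1.03 with hOMF exosomes. The share called was 100% for the fatty acid enzymes and 71.4% for the latter genes, with each kind of exosome. Over all tested genes it was 18.2% with CAF exosomes and 23.2% with hOMF exosomes. The members' medians were 0.16 with CAF exosomes and 0.11 with hOMF exosomes, and the difference between the lists was not tested. These lists were chosen with earlier results of these data known.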

How the data were processed

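The authors deposited 1 table with, per library, expected counts, FPKM and TPM, per the file headers, besides group means, left unused here. RSEM 1.2.8 is named with Bowtie2 2.2.5 per the submitters' processing notes, beside a mouse build, although members matched human genes by symbol and identifier; which build was used is therefore unclear. No source used here gives the annotation or the strand setting. The expected counts deposited by the authors are estimates that share reads between similar genes; 90.5% to 92.0% of values per library were whole within 0.001, and all were rounded. The FPKM deposited by the authors scale counts by transcript length and depth, and the TPM deposited by the authors sum to the same total in each library.

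Genes passed filterByExpr of edgeR (minimum count 10, total 15) and libraries were scaled by TMM; CPM are on that scale. One quasi-likelihood fit of all 9 libraries with the group as term (two-sided, 6 residual degrees of freedom) gave the 3 comparisons, adjusted over all 12470 genes. SE were taken from the fold change and the F statistic. The procedure was tested on simulated data. The work used edgeR 4.0.16, DESeq2 1.42.0 and limma 3.58.1 in R 4.3.3, and matplotlib 3.10.9 for figures in python 3.11.15. Promoters came from RefSeq (GRCh38.p14) and exon overlaps from GENCODE release 29, joined by NCBI gene identifier. GC content and length were on hand for 99.1% of tested genes and all 30 members.

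Members and lists were chosen with earlier results of these data known. Named were all called members, members of regulatory, transport and first or last roles, and up to 4 called genes per further list and comparison with control by smallest p; values of other members were added after they were seen, and some genes of the further lists are not reported here. Replicate numbers are not said to pair the libraries. Same-numbered libraries of different groups deviated with correlations of -0.15 to 0.14, and differently numbered ones with correlations of -0.14 to 0.18. With 3 libraries per group, these values cannot exclude a pairing.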

Additional observations from a re-analysis of the deposited data

How the results depend on the processing

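Each comparison was repeated under 18 alternatives, 9 of which left out 1 library each. Of 17 calls on members, 9 held under every alternative that gave a value, no called member changed sign, and 11 values that were not called were called under some alternative. Leaving out 1 library, the members called higher ran from 5 to 14 with CAF exosomes and from 4 to 10 with hOMF exosomes, and the genes called over the table from 1343 to 2389 and from 1695 to 3096. Between CAF and hOMF exosomes those over the table ran from 0 to 8. The table count with CAF exosomes was 1343 without CAF exosome replicate 3, 1389 without control replicate 2 and 1442 without control replicate 3, and that with hOMF exosomes 1695 without hOMF exosome replicate 2. With limma on log2(FPKM + 0.1), 11 members were higher with hOMF exosomes. With a GC and length correction, 1 member, GGPS1, was lower with CAF exosomes. The genes called between CAF and hOMF exosomes were 32 with DESeq2, 20 with that correction, and 0 with library totals, with limma at either pseudocount (1 or 0.1) and with only the 2 groups compared. The share of table calls that were higher, 52.4% with CAF and 50.9% with hOMF exosomes, was 63.1% and 67.0% with library totals without TMM factors, 64.0% and 68.7% with limma on log2(FPKM + 1), and 64.5% and 69.0% with a pseudocount of 0.1. With a replicate block 9 members were higher with CAF exosomes, and 7 higher and 1 lower with hOMF exosomes, as without it; the table counts were 2101 and 2718. The cause of these shifts was not tested. PMVK had the lowest CPM of the members and the largest SE.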

Other observations

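The branches that leave the mevalonate pathway for other isoprenoids were read as a further list of 22 genes, of which 21 were tested. With CAF exosomes 2 rose and 2 fell (median -0.05), and with hOMF exosomes 1 rose and 2 fell (median -0.04). The shares called, 19% with CAF exosomes and 14.3% with hOMF exosomes, were near or below the 18.2% and, with hOMF exosomes, 23.2% over all tested genes, so the genes named next are single genes and no result about the list. COQ5, a methyltransferase of coenzyme Q synthesis, rose by 0.41 (SE 0.10, adjusted p = 0.0140) with CAF exosomes and 0.62 (SE 0.10, adjusted p = 0.000552) with hOMF exosomes. DOLK, the dolichol kinase that serves protein glycosylation, rose with CAF exosomes, at 0.49 (SE 0.09, adjusted p = 0.00212), and was at 0.25 (SE 0.09, adjusted p = 0.0552) with hOMF exosomes. ICMT, which methylates prenylated proteins, fell, with -0.23 (SE 0.07, adjusted p = 0.0280) with CAF exosomes and -0.36 (SE 0.07, adjusted p = 0.00144) with hOMF exosomes, and CHML, a Rab escort protein, fell with -0.40 with CAF exosomes and -0.38 with hOMF exosomes. Enrichment of the list was not tested.

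Of 10 genes of oxysterol and bile acid synthesis in the table, 5 were tested and 1 (20%) was called with each kind of exosome. This is near the 18.2% of all tested genes called with CAF exosomes and the 23.2% called with hOMF exosomes. The gene named next is thus a single gene and no result about the list. CYP39A1, an oxysterol hydroxylase, rose by 0.70 (SE 0.18, adjusted p = 0.0142) with CAF exosomes and 0.77 (SE 0.18, adjusted p = 0.00618) with hOMF exosomes. Its levels were 5.89, 6.04 and 5.59 CPM with CAF exosomes and 5.81, 7.08 and 5.50 CPM with hOMF exosomes, against 4.27, 3.25 and 3.27 CPM in control.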
